A study of Rattus norvegicus with 30 samples.

Results

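Gene expression in repaired plantaris tendons was compared between 21 and 7 days after surgery in rats that received GSK2894631A at 2 mg/kg, a compound that inhibits HPGDS, the hematopoietic prostaglandin D synthase. The comparison used the 4 tendons of the 7D 2 mg/kg group (replicates 2 to 5 of the labels) and the 5 tendons of the 21D 2 mg/kg group (replicates 1 to 5), taken by their labelled time and dose, or 9 of the series' 30 tendons. Every gene with enough reads was tested from raw counts, and skeletal muscle genes were counted apart from the rest. All rats were young adult male Sprague Dawley rats without any genetic change, and each tendon came from a different rat. In both groups the plantaris tendon was cut across its midsubstance and sutured in both hind limbs while the Achilles tendon was left whole, and the compound was given by oral gavage 2 times a day. The right tendon was taken for RNA by cuts placed to leave out muscle and bone. The same operation with vehicle alone (0 mg/kg) or with 6 mg/kg at both times, and uninjured tendons without compound, served as references. Since no group received the compound without an injury, and since both times at 2 mg/kg received it, the comparison describes time after repair in treated rats. The 21D rats were also older at harvest and had a longer course of the compound, which cannot be told apart from time after repair.

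A cut tendon heals by inflammation, then by proliferation of fibroblasts that lay down collagen III and collagen I, and then by slow remodelling of that scar. Tenocytes, the resident fibroblasts, are marked by Scx, Mkx and Tnmd, and the macrophages, vessels, fat and nerve around the paratenon enter any bulk sample of the tissue. HPGDS makes prostaglandin D2 from prostaglandin H2, the product of the cyclooxygenases Ptgs1 and Ptgs2.

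Total counts on the listed genes were 14958208 to 33305123 per tendon at 7D and 28625800 to 41684360 at 21D, so that 3 counts corresponded to 0.084 to 0.193 and 0.0685 to 0.105 CPM (counts per 1000000 counts of a library, with library sizes scaled by TMM). Tendon genes were present in every tendon: Col1a1 ranged from 26800 to 32900 CPM at 7D and from 19900 to 40000 CPM at 21D, and Scx from 14.8 to 28.4 and from 13.8 to 26.4 CPM. Several 7D tendons stood apart from the others of their group. Tendons 4 and 5 had the lowest totals and the highest share of counts on adipocyte genes, 0.621% and 0.539% against 0.188% and 0.264% in tendons 2 and 3. Tendon 3 alone held hair and skin keratins, with 13 such genes summing to 525 CPM against 3.02 to 6.11 CPM in the other 7D tendons and 3.73 to 57.7 CPM at 21D. These lists were chosen after the values were seen, and the part of fat or skin in the results was not tested.

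Of the 12558 genes tested, 890 were higher at 21D than at 7D (7.09% of those tested) and 751 were lower (5.98%) by edgeR's quasi-likelihood test at an adjusted p under 0.05. Among the genes called, 54.2% were higher, and 637 higher and 496 lower genes differed by at least 1.5-fold. At least 4-fold differences were found in 292 higher and 113 lower genes, and the median log2 fold change of all genes tested was 0.0012. With scaling by total counts only, 710 genes were higher and 799 lower. With 1 tendon left out at a time, 538 to 783 genes were higher and 415 to 762 lower, both fewest without 7D tendon 5, and 492 were lower without 21D tendon 1. Without 7D tendons 4 and 5, which leaves 2 tendons at 7D, 267 genes were higher and 194 lower.

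Skeletal muscle RNA was close to absent at 7D and present in every tendon at 21D. The 74 tested genes of 4 muscle lists (86 listed) comprised 68 that were higher at 21D, none that was lower and 6 that did not pass the test, with a median log2 fold change of 7.55 against 0.0012 over all genes. The lists covered the contractile apparatus (31 of 32 higher, median 8.19), calcium handling (16 of 16, median 6.32), energy supply (10 of 12, median 8.61) and muscle development and the synapse (11 of 14, median 4.36). With 7D tendons 4 and 5 left out these counts were 24, 12, 10 and 6 higher and 0 lower. In a bulk sample, more muscle cells and more RNA per muscle cell cannot be told apart, and muscle at the edge of the cut piece cannot be told apart from muscle cells within the tendon.

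The share of counts on the genes of the first 3 lists was 0.0146%, 0.0159%, 0.0207% and 0.0199% in 7D tendons 2 to 5. In 21D tendons 1 to 5 it was 3.84%, 2.01%, 1.46%, 1.55% and 3.36%. The groups did not overlap, and the mean log2 share differed by 7.01 (21D minus 7D, exact two-sided permutation p = 0.0159, the smallest that 4 against 5 tendons allow). Every 21D tendon remained below the uninjured control tendons, where the share was 22.7 to 31.1%. The 7D 6 mg/kg tendons held 0.0165 to 0.0205%, whereas 7D 0 mg/kg tendons held 0.223 to 1.51%. The 21D groups at 0 and 6 mg/kg spanned 0.0846 to 9.28% and 0.396 to 11.3%.

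**Figure D1:**
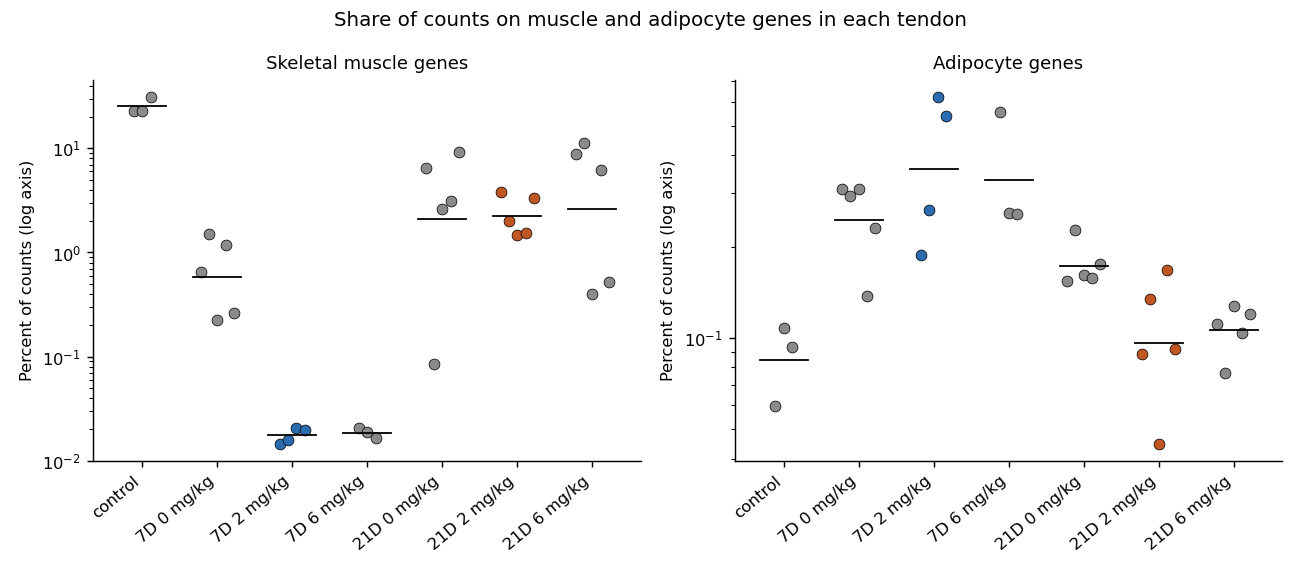
Percent of each tendon's counts on skeletal muscle genes (left) and adipocyte genes (right), on log axes, for the 7 groups; each point is 1 tendon, each line the group mean taken on the log scale, and the 2 groups compared are coloured. The 7D 2 mg/kg tendons hold 0.0146 to 0.0207% muscle counts and the 21D 2 mg/kg tendons 1.46 to 3.84%, while adipocyte counts run from 0.188 to 0.621% and from 0.0449 to 0.168%.

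Among the muscle genes with the highest level at 21D, Acta1 (ENSRNOG00000017786, chromosome 19 in the rn6 annotation of the files), the skeletal muscle actin of the thin filament, was measured at 2.43, 2.49, 5.73 and 1.6 CPM in 7D tendons 2 to 5. In 21D tendons 1 to 5 it was measured at 6070, 3090, 2320, 2580 and 6230 CPM. Its log2 fold change was 10.37 (SE 1.43, adjusted p = 9.15e-05). Myh4, the myosin heavy chain of the fastest fibres, had 2.06, 1.88, 3.88 and 1.48 CPM at 7D and 4850, 1820, 1420, 1160 and 3910 CPM at 21D. Ckm, the muscle creatine kinase that buffers ATP, had 0.994, 0.7, 1.8 and 0.385 CPM at 7D and 2310, 1110, 803, 783 and 1940 CPM at 21D. For all 3 genes, called on the same values, the groups did not overlap, and tendons 1 and 5 of the 21D group were the highest. The log2 fold changes were 10.15 for Myh4, 10.48 for Ckm, 9.29 for the fast regulatory light chain Mylpf and 9.69 for the essential light chain Myl1. Tnnt3, the fast troponin T, was already at 28.0 to 62.9 CPM at 7D and at 821 to 2230 CPM at 21D, with a log2 fold change of 5.07.

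The slow-fibre genes were higher as well. Myh7, the slow myosin heavy chain, differed by 8.23 on the log2 scale, Myl2, its regulatory light chain, by 8.6, and Tnni1, the slow troponin I, by 7.66, each with an adjusted p under 0.05. Ryr1, the calcium release channel of the sarcoplasmic reticulum, differed by 7.71. Mb, the oxygen store myoglobin, differed by 9.78, and Ckmt2, the mitochondrial creatine kinase, by 10.35.

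Genes of muscle formation were called along with those of mature fibres. Myod1, a regulator of myogenic commitment, had 0 counts in all 4 of the 7D tendons and 8.92, 3.73, 2.39, 1.6 and 9.75 CPM in the 21D tendons, which is at least 27.4-fold higher when set against a floor of 3 counts per library. Myog, which drives myoblast differentiation, had 1 count over the 7D tendons and 2.38 to 3.91 CPM at 21D, a ratio of 282 (95% counting interval 50.4 to 11200). Myh3, the embryonic myosin heavy chain, had 0.0736, 0, 0.218 and 0 CPM at 7D and 227, 26.6, 73.1, 50.2 and 74.1 CPM at 21D. Myh8, the perinatal form, had 1 count at 7D and 2.03 to 11.6 CPM at 21D, a ratio of 613 (95% counting interval 110 to 24200). Chrnd, a subunit of the muscle acetylcholine receptor, had 3 counts at 7D and 0.976 to 1.99 CPM at 21D, a ratio of 49.7 (16.8 to 243). Myf6, a regulator of late fibre differentiation, was at 0 to 0.642 CPM at 7D and at 9.75 to 22.9 CPM at 21D. Mef2c, a transcription factor of muscle that vessels and other cells also use, differed less, with 40.9 to 57.1 CPM at 7D and 94.8 to 239 CPM at 21D (log2 fold change 1.64). Ncam1, the adhesion molecule of myoblasts, nerve and other cells, had 12.3 to 18.3 CPM and 18.7 to 43.4 CPM (log2 fold change 0.86). The 6 muscle genes that did not pass the test were Chrna1, Chrne, Musk, Mybph, Phkg1 and Slc2a4. Uninjured tendons held Myod1 at 37.7 ± 15.1 CPM and Myh3 at 272 ± 59.7 CPM (SD, n = 3). Every uninjured tendon exceeded every 21D tendon for Myod1, but for Myh3 the uninjured range of 223 to 338 CPM met 21D tendon 1. When 1 tendon was left out at a time, Mef2c lost its call in 5 of the 9 fits (adjusted p up to 0.086, without 7D tendon 5) and Ncam1 in 3 (up to 0.0958, without 21D tendon 3). Cdh15, a development gene that only just passed (adjusted p = 0.0498), also lost its call in such fits (adjusted p up to 0.142, without 7D tendon 5). When 7D tendons 4 and 5 were left out, Tnnt3, Mef2c, Ncam1, Myh8, Myl4 and Cdh15 lost their calls.

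Promoters of these genes were searched for the core of the MEF2 site, since MEF2 factors are regulators of muscle genes. Windows of 300 bases (250 before and 50 after the start site) came from RefSeq on the GRCr8 build and matched 52 of the 68 higher muscle genes. The letters TAAAAATA, read on both strands (TATTTTTA on the other), stood in the windows of 7 of the 52 genes (13.5%) against 810 of 27457 genes with a window (2.95%). These were Casq2, Cox6a2, Myh7, Myl1, Pgam2, Xirp1 and Xirp2. The CCAAT box (CCAAT or ATTGG) stood in 23 of the 52 (44.2%) against 39.6% of all genes, and TTTGAA, a cell cycle element, in 8 (15.4%) against 19.4%. A match describes the letters in the window only. The 3 promoters shown belong to genes whose time effect also differed between 2 and 0 mg/kg, with the match in capitals. Myl1 lies at chr9:75897750-75898049 on the minus strand, Cox6a2, a cytochrome oxidase subunit of muscle, at chr1:192219667-192219966 on the minus strand, and Xirp2, an actin-binding protein of the sarcomere, at chr3:72533936-72534235 on the plus strand. The matches start 175, 49 and 73 bases before the start sites.
Myl1: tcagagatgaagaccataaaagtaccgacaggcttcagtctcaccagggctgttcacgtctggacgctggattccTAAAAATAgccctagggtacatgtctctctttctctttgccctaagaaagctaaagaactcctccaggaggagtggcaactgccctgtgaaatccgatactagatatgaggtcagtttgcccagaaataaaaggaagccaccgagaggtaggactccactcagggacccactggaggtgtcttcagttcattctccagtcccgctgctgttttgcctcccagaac
Cox6a2: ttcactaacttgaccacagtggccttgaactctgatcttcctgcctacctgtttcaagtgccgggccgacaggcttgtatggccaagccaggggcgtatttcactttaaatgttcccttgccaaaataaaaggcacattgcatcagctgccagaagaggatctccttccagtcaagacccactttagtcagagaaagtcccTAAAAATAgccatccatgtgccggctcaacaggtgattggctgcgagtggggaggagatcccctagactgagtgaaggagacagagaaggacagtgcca
Xirp2: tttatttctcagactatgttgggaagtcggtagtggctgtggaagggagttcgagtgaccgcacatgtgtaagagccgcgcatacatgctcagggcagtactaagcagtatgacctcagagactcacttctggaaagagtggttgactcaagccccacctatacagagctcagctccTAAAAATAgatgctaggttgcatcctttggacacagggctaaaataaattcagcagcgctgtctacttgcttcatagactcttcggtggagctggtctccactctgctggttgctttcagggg

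Genes outside the muscle lists were then divided by whether they followed the muscle share among tendons of the same group. A slope on the log2 muscle share was fitted to all 30 tendons beside the group means, and 1470 of all genes (11.7%) had a positive slope at an adjusted p under 0.05 and 1414 (11.3%) a negative one. Of the 822 genes outside the lists that were higher at 21D, 301 (36.6%) had such a slope and their median log2 fold change was 3.34. Of the 751 lower genes, 18 (2.4%) had a positive slope and 48 (6.39%) a negative one, as did 14 of the higher genes (1.7%). Without the genes of positive slope, 521 genes were higher with a median log2 fold change of 0.65 and 733 lower with a median of -0.84. The levels of the 2 groups did not overlap in 433 of these higher and 434 of these lower genes, which had been called on the same values. Over all 12558 genes tested, called or not, the groups did not overlap in 1415 with higher and 745 with lower levels at 21D. With the log2 muscle share as a covariate, 161 of the higher and 194 of the lower genes were still called in the same direction, with a median standard error over all genes of 0.273 against 0.173 without it. Without 7D tendons 4 and 5, 215 genes outside the muscle lists were higher and 194 lower.

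**Figure D2:**
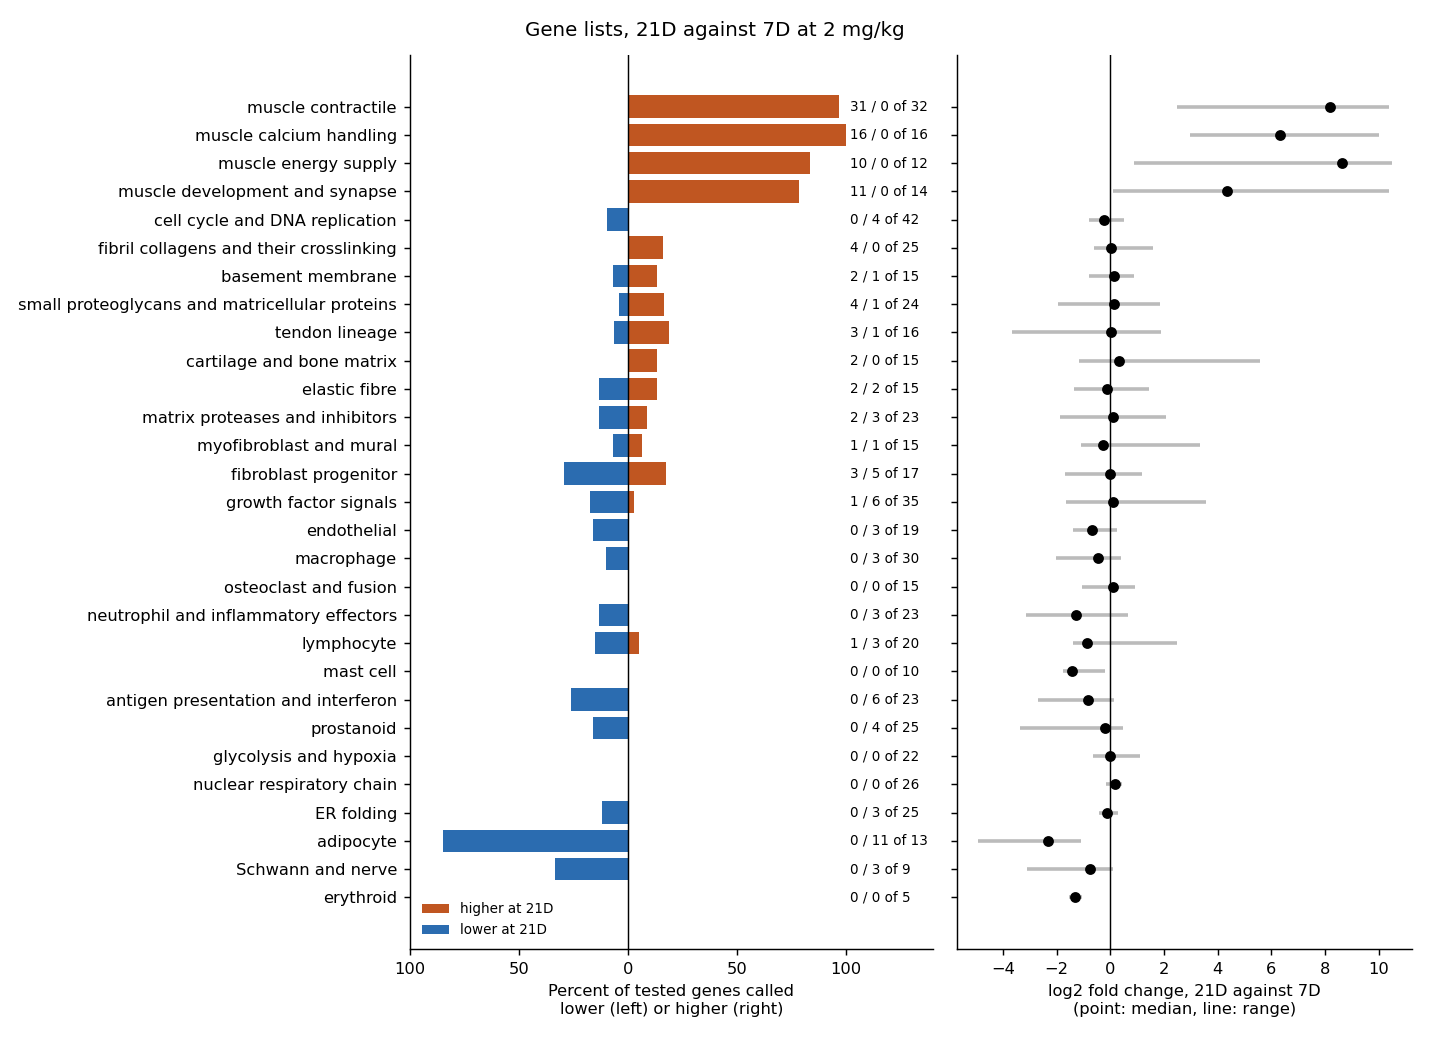
Gene lists in the comparison of 21D with 7D at 2 mg/kg: left, the percent of each list's tested genes called higher (right of 0) or lower (left of 0), with the counts higher / lower of tested beside the bars; right, the median (point) and range (line) of the log2 fold change. The 4 muscle lists lie to the right with medians of 4.36 to 8.61, the adipocyte list to the left with 11 of 13 genes lower, and the other lists have medians between -1.45 and 0.32.

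The largest increases outside muscle were taken from called genes whose groups did not overlap, and included matrix proteins and a membrane collagen. Hmcn1, hemicentin 1 of the basement membrane zone, was measured at 43.4, 50.7, 26.4 and 34.8 CPM in 7D tendons 2 to 5 and at 246, 98.3, 264, 127 and 178 CPM in 21D tendons 1 to 5. Its log2 fold change was 2.23 (SE 0.33, adjusted p = 0.000145). Col13a1, a transmembrane collagen of cell adhesion sites, was at 3.86, 2.47, 1.97 and 4.62 CPM at 7D and at 19.0, 13.2, 22.2, 20.4 and 15.3 CPM at 21D (log2 fold change 2.49, SE 0.432). Matn4, a matrilin of cartilage and loose matrix, was at 2.7 to 6.7 CPM and at 21.2 to 39.5 CPM (log2 fold change 2.49). Adamts16 and Adamts8, secreted metalloproteases of the thrombospondin type, differed by 2.55 and 2.08. Fam81a was at 2.5, 3.59, 1.31 and 1.09 CPM at 7D and at 13.9, 11.7, 14, 17.9 and 20.1 CPM at 21D, and Kcnma1, a calcium-activated potassium channel, at 2.29 to 4.51 and 10.1 to 21.2 CPM. Nr4a3, a nuclear receptor induced by many stimuli, differed by 2.12, with 22.6 CPM in 21D tendon 3 and 5.17 CPM in tendon 2. Gnas, the stimulatory G protein subunit, was at 0.77 to 6.0 CPM at 7D and 18.8 to 25.1 CPM at 21D (log2 fold change 2.96), and its locus has several overlapping transcripts, so the value depends on how shared reads were counted. Igfn1, a sarcomere protein of muscle that was not in the lists, had 3 counts over the 7D tendons and 29.4, 2.67, 5.71, 1.0 and 21.6 CPM at 21D, a ratio of 365 (95% counting interval 125 to 1770). Its 2 highest 21D tendons, 1 and 5, were those with the largest muscle share, although its slope on the share did not pass the test (adjusted p = 0.11). With 7D tendons 4 and 5 left out, Matn4, Adamts8 and Nr4a3 lost their calls, and Nr4a3 also lost its call in 7 of the 9 fits without 1 tendon (adjusted p up to 0.118, without 7D tendon 5).

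**Figure D3:**
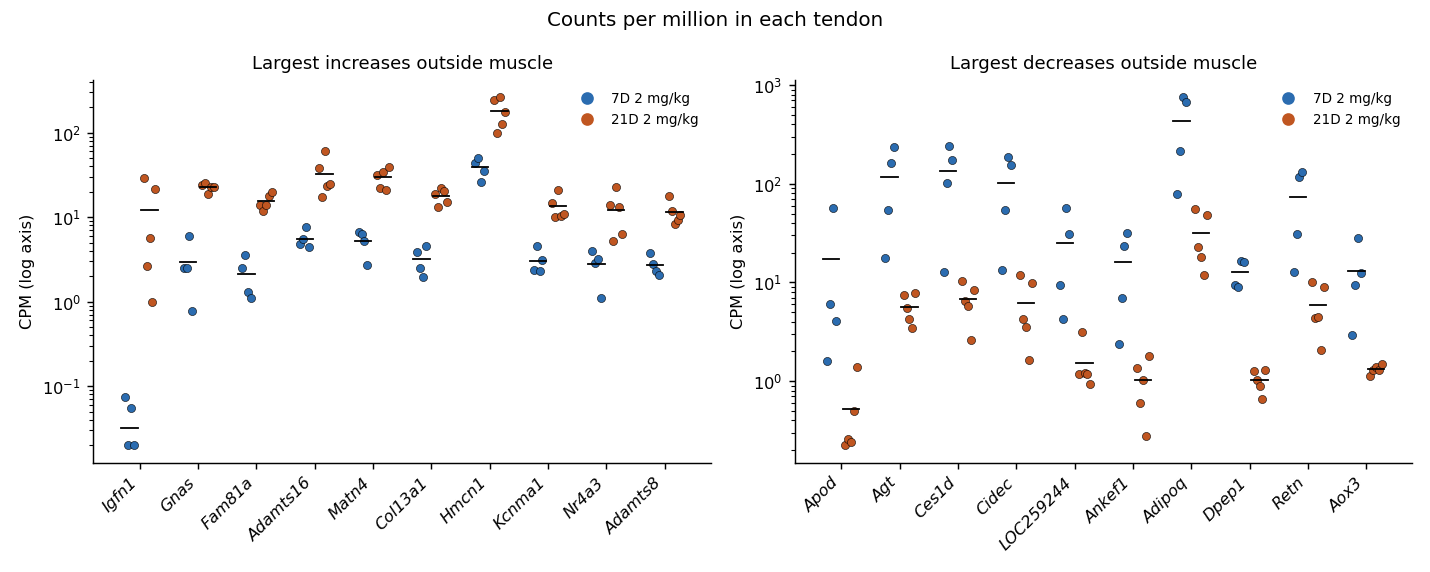
CPM on log axes of the 10 largest increases (left) and decreases (right) outside muscle among genes whose tendons did not overlap, with 1 point per tendon, 7D 2 mg/kg in blue and 21D 2 mg/kg in orange, and lines at the group means; values under 0.02 CPM are drawn at 0.02. Hmcn1 runs from 26.4 to 50.7 CPM at 7D and from 98.3 to 264 CPM at 21D, and Adipoq from 79.2 to 757 and from 11.9 to 56.0 CPM.

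Genes of fat were lower at 21D. Of the 10 largest decreases among genes whose groups did not overlap, Cidec, Adipoq and Retn were in the adipocyte list. In that list 11 of 13 genes were lower (84.6%, against 5.98% of all genes) and none was higher (against 7.09%), with a median log2 fold change of -2.32. Over the same interval 0 of the 13 were lower at 0 mg/kg (median -0.83) and 9 at 6 mg/kg (median -1.91). Adipoq, the hormone adiponectin, was measured at 79.2, 215, 757 and 680 CPM in 7D tendons 2 to 5 and at 56.0, 22.7, 18.3, 11.9 and 48.7 CPM in 21D tendons 1 to 5 (log2 fold change -3.78, SE 0.602, adjusted p = 0.000269). Cidec, which enlarges lipid droplets, was at 13.3, 54.1, 185 and 157 CPM and at 11.8, 4.28, 3.5, 1.62 and 9.82 CPM (log2 fold change -4.04). Lep, the satiety hormone leptin, was at 4.42, 35.3, 110 and 120 CPM and at 5.3, 0.775, 0.866, 0.48 and 3.59 CPM (log2 fold change -4.94). The 3 genes were highest in 7D tendons 4 and 5, and 7D tendon 2 lay close to the highest 21D tendons, below the highest of them for Lep.

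The share of counts on the adipocyte list was 0.188%, 0.264%, 0.621% and 0.539% in the 7D tendons and 0.0886%, 0.134%, 0.0449%, 0.168% and 0.0922% in the 21D tendons, a log2 difference of -1.90, with 0.0599 to 0.108% in uninjured tendons. At 0 mg/kg it was 0.137 to 0.31% at 7D and 0.154 to 0.226% at 21D. At 6 mg/kg it was 0.255 to 0.555% and 0.0766 to 0.127%. When 7D tendons 4 and 5 were left out only Cidec (log2 fold change -2.44, adjusted p = 0.035), Lep (-3.18, adjusted p = 0.0454) and Adipoq (-2.22, adjusted p = 0.0343) kept their calls in the list. A slope on the log2 adipocyte share was positive in 16 of all genes (0.127%) and in 10 of the 751 lower genes (1.33%). With that share as a covariate, which was added after the values were seen, 48 genes were higher and 24 lower, with a median standard error of 0.254.

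Large decreases were also found outside the adipocyte list. Agt, the angiotensin precursor that fat and liver secrete, was at 17.6, 54.0, 161 and 239 CPM at 7D and at 7.43, 5.57, 4.24, 3.43 and 7.8 CPM at 21D (log2 fold change -4.37, SE 0.613, adjusted p = 9.15e-05). Ces1d, a carboxylesterase of fat and liver with several near copies, was at 12.7 to 243 CPM and at 2.63 to 10.4 CPM (log2 fold change -4.31). Dpep1, a membrane dipeptidase, differed more evenly, with 9.46, 8.91, 16.6 and 16.0 CPM at 7D and 1.26, 1.03, 0.896, 0.662 and 1.29 CPM at 21D (log2 fold change -3.63). Apod, a lipid carrier of nerve and fibroblasts, owed its mean to 56.8 CPM in 7D tendon 4, against 1.58 to 6.08 CPM in the other 7D tendons and 0.224 to 1.39 CPM at 21D. Aox3, an aldehyde oxidase, was at 2.91 to 28.1 CPM and at 1.12 to 1.5 CPM. Krt25, Krt27, Krt71 and Krt73, keratins of the hair root sheath, had still larger called decreases, with log2 fold changes of -5.4 to -10.63, and 7D tendon 3 held 51.8, 24.5, 93.6 and 21.1 CPM of them where no other 7D tendon exceeded 0.478 CPM. Without that tendon, 4 of the 13 hair and skin genes were tested and none was called.

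Most genes of the scar matrix did not pass the test between the 2 times. Col1a1, the main fibril collagen, was at 27600, 30200, 32900 and 26800 CPM at 7D and at 30500, 26700, 31800, 19900 and 40000 CPM at 21D, a log2 fold change of 0.02 (SE 0.294, adjusted p = 0.976). Col3a1, the collagen of early scar, was at 48700, 45800, 41900 and 47900 CPM and at 54500, 41000, 56700, 38600 and 55200 CPM (log2 fold change 0.1, SE 0.244, adjusted p = 0.835). Uninjured tendons held Col1a1 at 18400 ± 11400 CPM and Col3a1 at 9060 ± 4850 CPM (SD, n = 3). Their range of 7350 to 30100 CPM for Col1a1 overlapped both groups, and that of 3490 to 12300 CPM for Col3a1 lay below every 7D and 21D tendon. In the list of fibril collagens and their crosslinking, 4 of 25 genes were higher (16%, against 7.09% of all genes) and 0 lower (against 5.98%), with a median of 0.02.

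The 4 were minor collagens and a crosslinking enzyme. Col5a3, a collagen V chain that sets fibril diameter, was at 606, 505, 518 and 534 CPM at 7D and at 1640, 683, 1700, 816 and 1080 CPM at 21D (log2 fold change 1.13, SE 0.326, adjusted p = 0.0225). Col5a2 was at 1130 to 1570 CPM and at 1830 to 3480 CPM (log2 fold change 0.82), and Col24a1, a minor fibril collagen, at 0.764 to 3.42 and 4.15 to 6.39 CPM. Loxl2, a lysyl oxidase that crosslinks collagen, was at 163, 156, 162 and 134 CPM and at 626, 327, 607, 365 and 360 CPM (log2 fold change 1.57, adjusted p = 0.0123). The 7D and 21D tendons overlapped for none of the 4 genes, which had been called on the same values. Over all 12558 genes tested, called or not, the groups did not overlap in 1415 with higher levels at 21D. The 21D tendons 1 and 3 were the highest for Col5a3, Col5a2 and Loxl2. In the basement membrane list of 15 genes, 2 were higher (13.3%, against 7.09% of all genes) and 1 lower (6.67%, against 5.98%). Col6a1 (log2 fold change 0.89) and Nid1, which links laminin to collagen IV (0.68), were higher and Col4a5, a collagen IV chain, was lower (-0.8). Without 7D tendons 4 and 5, no gene of the fibril collagen or basement membrane lists was called. With 1 tendon left out at a time, Loxl2 kept its call, while the highest adjusted p was 0.0665 for Col5a3, 0.122 for Col5a2, 0.0801 for Col24a1, 0.0782 for Col6a1, 0.088 for Nid1 and 0.0782 for Col4a5.

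Matricellular proteins and small proteoglycans had 4 of 24 genes higher (16.7%, against 7.09% of all genes) and 1 lower (4.17%, against 5.98%), with a median of 0.14. Nov, a CCN protein that binds integrins, was at 343, 251, 359 and 264 CPM at 7D and at 923, 692, 871, 907 and 827 CPM at 21D, a log2 fold change of 1.47 (SE 0.285, adjusted p = 0.0012). Thbs1, an activator of latent TGF-beta, was at 52.6, 63.6, 72.4 and 66.4 CPM and at 280, 179, 380, 173 and 137 CPM (log2 fold change 1.85, adjusted p = 0.00199). Both kept their calls without 7D tendons 4 and 5, whereas the other 3 called genes of the list, Kera, Thbs4 and Tnc, lost theirs. Kera, the proteoglycan keratocan, was at 52.2 to 131 CPM and at 140 to 277 CPM (log2 fold change 1.5), and Thbs4, a thrombospondin of tendon, at 368 to 891 and 1070 to 1590 CPM (log2 fold change 1.1). Tnc, tenascin C of early wounds, was lower, at 589, 452, 272 and 812 CPM and at 222, 149, 434, 83.1 and 188 CPM (log2 fold change -1.3, adjusted p = 0.0412), with 21D tendon 3 above 7D tendon 4. With 1 tendon left out at a time, the highest adjusted p was 0.0921 for Kera, 0.0911 for Thbs4 and 0.169 for Tnc, without 7D tendon 5, 4 and 5.

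Of the tendon lineage genes 3 of 16 were higher (18.8%, against 7.09% of all genes) and 1 lower (6.25%, against 5.98%). The higher genes were Kera and Thbs4 again and Cilp2, a cartilage intermediate layer protein (21.7 to 54.1 CPM at 7D, 80.2 to 190 CPM at 21D, log2 fold change 1.9). Clec3a, a cartilage lectin, was called lower, at 0.626, 10.3, 8.46 and 38.3 CPM in 7D tendons 2 to 5 and at 0.0896 to 2.24 CPM at 21D, with 7D tendon 2 within the range of the 21D tendons. The defining regulators did not pass the test: Scx differed by -0.14 (adjusted p = 0.829), Mkx by 1.08 (adjusted p = 0.242) and the tenocyte surface protein Tnmd by 0.77 (adjusted p = 0.237). Mkx stayed at 0.193 to 0.736 CPM at 7D and 0.314 to 1.08 CPM at 21D, below the 5.68 ± 3.37 CPM (SD, n = 3) of uninjured tendons. In the cartilage and bone list 2 of 15 genes were higher (13.3%, against 7.09% of all genes). These were Matn4 and Mepe, a protein of bone matrix with 2 counts over the 7D tendons and 0.402 to 2.3 CPM at 21D (ratio 56.5, 95% counting interval 15.4 to 470). When 1 tendon was left out at a time, Cilp2, Clec3a and Mepe each lost the call at least once, with adjusted p up to 0.0589 (without 7D tendon 2), 0.188 (without 7D tendon 5) and 0.0681 (without 7D tendon 2). All 3 also lost the call without 7D tendons 4 and 5 together, as did Matn4.

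Of 15 elastic fibre genes, 2 were higher and 2 lower (13.3% each, against 7.09% and 5.98% of all genes tested). Eln, the elastin core protein, was at 687, 488, 660 and 368 CPM at 7D and at 191, 179, 179, 180 and 356 CPM at 21D, a log2 fold change of -1.34 (SE 0.237, adjusted p = 0.000551). Efemp1, a fibulin, was also lower (143 to 233 CPM against 80.5 to 132 CPM, log2 fold change -0.87). Ltbp2 and Ltbp4, which bind microfibrils, were higher by 1.44 and 0.64 on the log2 scale. Among proteases and their inhibitors, Mmp16, a membrane metalloprotease, was at 13.9, 10.2, 5.4 and 8.92 CPM and at 47.2, 29.5, 45.9, 35.9 and 36.1 CPM (log2 fold change 2.01, SE 0.285, adjusted p = 0.0001), with no overlap. Timp1, an inhibitor of metalloproteases that wounds induce, was lower, at 292 to 728 CPM and at 217 to 313 CPM (log2 fold change -0.87). Mmp14, which cuts fibril collagen at the cell surface, was at 504 to 906 CPM and at 958 to 1180 CPM without passing the test (adjusted p = 0.0754), and the collagenase Mmp13 varied from 3.98 to 46.4 CPM within the 21D group. With 1 tendon left out at a time, the highest adjusted p was 0.0775 for Efemp1 and 0.15 for Timp1, both without 7D tendon 5, and 0.135 for Ltbp4 without 7D tendon 3. With 7D tendons 4 and 5 left out, Eln and Mmp16 kept their calls and Efemp1, Ltbp2, Ltbp4 and Timp1 lost theirs.

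Of 17 fibroblast progenitor genes, 3 were higher (17.6%, against 7.09% of all genes tested) and 5 lower (29.4%, against 5.98%). Tppp3, a marker of tendon sheath progenitors, was at 279, 228, 216 and 292 CPM at 7D and at 623, 528, 608, 636 and 504 CPM at 21D (log2 fold change 1.19, SE 0.181, adjusted p = 0.000177), close to the 606 ± 66.6 CPM (SD, n = 3) of uninjured tendons. Sfrp2, a secreted Wnt modulator of activated fibroblasts, was at 355, 255, 323 and 266 CPM and at 98.1, 53.6, 109, 36.3 and 163 CPM (log2 fold change -1.7, SE 0.321, adjusted p = 0.000983). Dpp4, a surface peptidase of progenitors, was at 71.7 to 119 CPM and at 26.1 to 49.3 CPM (log2 fold change -1.4), and Gli1, a target of hedgehog signalling, at 5.19 to 9.88 and 2.66 to 4.36 CPM (log2 fold change -0.94). None of these genes, called on the same values, had overlapping groups. Over all 12558 genes tested, the groups did not overlap in 1415 with higher and 745 with lower levels at 21D. Gli1 lost its call without 7D tendons 4 and 5.

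Of 35 signal genes, 6 were lower (17.1%, against 5.98% of all genes tested) and 1 higher (2.86%, against 7.09%), while 22 had a fold change above 0 (median 0.08). With 1 tendon left out at a time, 3 to 7 were lower and 0 to 3 higher. Inhbb, an activin subunit, was at 14.3, 20.1, 16.1 and 21.6 CPM at 7D and at 6.67, 4.45, 6.69, 4.25 and 6.93 CPM at 21D (log2 fold change -1.64, SE 0.245, adjusted p = 0.00016). Wnt5a, a noncanonical Wnt ligand, was at 13.7 to 22.3 CPM and at 6.43 to 11.4 CPM (log2 fold change -1.02), and the Wnt antagonists Sfrp1 and Wif1 differed by -1.17 and -1.01. Tgfb3, a TGF-beta ligand, was higher at 201 to 279 CPM against 115 to 159 CPM (log2 fold change 0.79). Tgfb1 (0.02) and Igf1 (0.0) had fold changes near 0 and did not pass the test, with adjusted p of 0.967 and 0.995. When 7D tendons 4 and 5 were left out, 3 signal genes were lower and none was higher. Without 7D tendon 5 alone, Wif1 and Tgfb3 were not called (adjusted p = 0.105 and 0.0583).

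**Figure D4:**
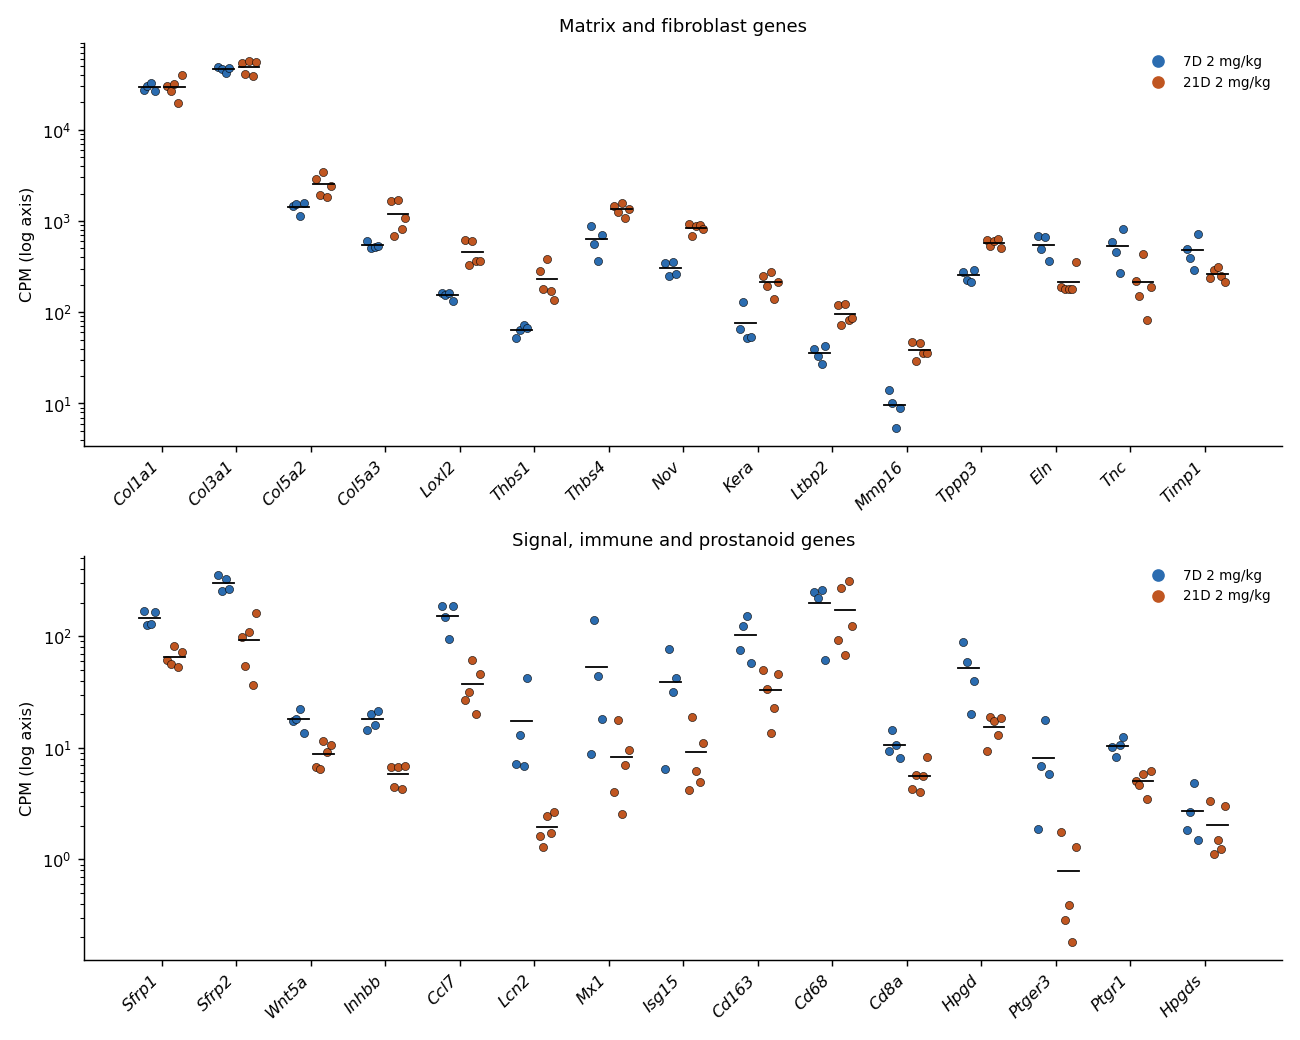
CPM on log axes in each tendon for matrix and fibroblast genes (top) and for signal, immune and prostanoid genes (bottom), 7D 2 mg/kg in blue and 21D 2 mg/kg in orange, with lines at the group means. Col1a1 and Col3a1 overlap between the times, Mmp16 runs from 5.4 to 13.9 and from 29.5 to 47.2 CPM, and Ccl7 from 93.5 to 186 and from 19.9 to 61.4 CPM.

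Immune genes that were called were lower at 21D, with 1 exception. In the list of neutrophil and inflammatory effectors 3 of 23 genes were lower (13%, against 5.98% of all genes, median -1.30). Ccl7, a chemokine that attracts monocytes, was at 186, 149, 93.5 and 185 CPM in the 7D tendons and at 27.1, 31.6, 61.4, 19.9 and 45.9 CPM in the 21D tendons (log2 fold change -2.04, SE 0.482, adjusted p = 0.00578). Lcn2, the iron-binding lipocalin of neutrophils and stressed tissue, was at 7.21, 13.1, 6.93 and 42.4 CPM and at 1.63, 1.29, 2.45, 1.71 and 2.68 CPM (log2 fold change -3.15, adjusted p = 0.000269). The groups overlapped for neither gene, both called on the same values, and tendon 5 was the highest 7D tendon for Lcn2. S100a8, a calcium-binding protein of neutrophils, ranged from 2.5 to 22.2 CPM at 7D and from 0.959 to 6.48 CPM at 21D, and it was not called without 7D tendon 3 (adjusted p = 0.22). It also lost the call without 7D tendon 4 (adjusted p = 0.0539) and without 21D tendon 1, 2, 3 or 4 (adjusted p up to 0.0825).

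In the antigen presentation and interferon list 6 of 23 genes were lower (26.1%, against 5.98% of all genes) and 0 higher, with a median of -0.85. Of the 6, 4 were the interferon-induced Mx1, Isg15, Ifit2 and Ifit3. Mx1, an antiviral GTPase, was at 8.87, 140, 43.9 and 18.2 CPM and at 4.01, 17.8, 2.57, 6.97 and 9.61 CPM (log2 fold change -2.69, SE 0.757, adjusted p = 0.0196). Isg15, a ubiquitin-like modifier, was at 6.44, 76.3, 31.4 and 42.2 CPM and at 4.18, 19.0, 6.18, 4.96 and 11.1 CPM. For Mx1 and Isg15, as for Ifit2 and Ifit3, 7D tendon 3 was the highest and the groups overlapped. Flt3, a receptor of dendritic cell precursors, had no overlap at 4.81 to 11.9 CPM and 2.48 to 4.22 CPM (log2 fold change -1.4). Without 7D tendon 3 none of these 5 genes was called, with adjusted p of 0.18 for Mx1, 0.101 for Isg15, 0.212 for Ifit2, 0.154 for Ifit3 and 0.0815 for Flt3. Nor was any called without 21D tendon 1 (adjusted p = 0.0546, 0.0565, 0.0974, 0.078 and 0.0517 in that order). All but Mx1 also lost the call in other fits without 1 tendon. Without 7D tendons 4 and 5, Isg15, Ifit2 and Ifit3 lost their calls and Mx1 and Flt3 kept theirs.

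Macrophage genes had 3 of 30 lower (10%, against 5.98% of all genes) and none higher (median -0.48). Cd163, a scavenger receptor of resident macrophages, was at 75.5, 123, 152 and 57.8 CPM and at 49.4, 33.9, 13.5, 22.7 and 45.9 CPM (log2 fold change -1.63, adjusted p = 0.0246), and Siglec1, a sialic acid receptor, at 9.02 to 73.2 and 4.84 to 14.4 CPM. Fabp4, a fatty acid carrier that adipocytes share, was the other. Cd68, the lysosomal marker of macrophages, was at 249, 221, 259 and 61.8 CPM at 7D and at 91.9, 268, 67.3, 315 and 123 CPM at 21D, and Adgre1 (F4/80) at 26.8 to 75.0 and 14.6 to 47.2 CPM. Neither passed the test (adjusted p = 0.853 and 0.273), and Cd68 was above the mean of uninjured tendons, 18.9 ± 10.2 CPM (SD, n = 3), in all 9 tendons. With 7D tendons 4 and 5 left out, no macrophage gene was called, and with 1 tendon left out at a time the highest adjusted p was 0.075 for Cd163, 0.106 for Siglec1 and 0.109 for Fabp4.

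Among lymphocyte genes 3 of 20 were lower (15%, against 5.98% of all genes) and 1 higher (5%, against 7.09%). The lower genes were the T cell receptor chains Cd3d and Cd3g and the co-receptor Cd8a (log2 fold change -0.94, 8.09 to 14.5 CPM at 7D, 4.03 to 8.22 CPM at 21D). Jchain, the joining chain of secreted antibodies, was higher (0.578 to 1.97 CPM and 2.42 to 17.5 CPM, log2 fold change 2.47, adjusted p = 0.0436). None of the 10 mast cell genes or 15 osteoclast genes was called (against 7.09% of all genes higher and 5.98% lower). All 10 mast cell genes had a fold change under 0 (median -1.45), and 0 to 5 were lower with 1 tendon left out at a time. Of the osteoclast genes 11 had a fold change above 0, and none was called in those fits. Cma1, a mast cell chymase, was at 45 to 77.4 CPM and at 3.72 to 37.8 CPM with an adjusted p of 0.0823. Endothelial genes had 3 of 19 lower (15.8%, against 5.98% of all genes, median -0.68). Of these, Tek, the angiopoietin receptor, was at 113, 83.5, 127 and 111 CPM and at 67.1, 39.7, 66.9, 45.1 and 72.6 CPM (log2 fold change -0.9, adjusted p = 0.0228). In the Schwann and nerve list 3 of 9 were lower (33.3%, against 5.98% of all genes). When 7D tendons 4 and 5 were left out, no endothelial, lymphocyte or nerve gene was called. With 1 tendon left out at a time, the highest adjusted p was 0.0716 for Cd3d, 0.227 for Cd3g, 0.124 for Cd8a, 0.132 for Jchain and 0.0608 for Tek.

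Prostanoid genes had 4 of 25 lower (16%, against 5.98% of all genes) and none higher (against 7.09%), with a median of -0.19. Hpgds, the target of the compound, was at 1.84, 2.66, 4.86 and 1.48 CPM in the 7D tendons and at 3.31, 1.12, 1.49, 1.23 and 3.0 CPM in the 21D tendons. The groups overlapped, with a log2 fold change of -0.42 (SE 0.472, adjusted p = 0.603), and uninjured tendons held 4.03 ± 3.22 CPM (SD, n = 3). Hpgd, which inactivates prostaglandins by oxidation, was at 89.4, 58.7, 19.9 and 39.4 CPM and at 9.45, 18.8, 17.4, 13.1 and 18.5 CPM (log2 fold change -1.75, SE 0.406, adjusted p = 0.00509). Ptgr1, the next enzyme of that route, was at 10.1, 8.24, 10.5 and 12.6 CPM and at 5.08, 4.65, 5.83, 3.45 and 6.2 CPM (log2 fold change -1.04, adjusted p = 0.00125). The groups overlapped for neither of them, both called on the same values. Ptger3, a prostaglandin E2 receptor that fat also expresses, was at 1.88, 6.81, 17.9 and 5.84 CPM and at 1.77, 0.287, 0.388, 0.183 and 1.29 CPM (log2 fold change -3.37), and Ptgfr, the receptor of prostaglandin F2alpha, at 16.0 to 30.4 and 6.35 to 24.8 CPM (log2 fold change -0.93). The cyclooxygenases did not pass the test, with log2 fold changes of -0.59 for Ptgs1 (adjusted p = 0.156) and -0.15 for Ptgs2 (adjusted p = 0.824), nor did the prostaglandin E synthase Ptges (-0.62, adjusted p = 0.0699). Without 7D tendons 4 and 5, 2 prostanoid genes were lower, and Ptgfr was not called in 7 of the 9 fits without 1 tendon (adjusted p up to 0.16, without 7D tendon 5).

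Proliferation genes had 4 of 42 lower (9.52%, against 5.98% of all genes) and none higher (median -0.25), and 1 to 8 were lower with 1 tendon left out at a time. Ccne1, cyclin E1 of the entry into S phase, was at 5.85, 5.83, 4.42 and 5.84 CPM at 7D and at 2.38, 2.96, 4.15, 3.24 and 3.1 CPM at 21D (log2 fold change -0.79, SE 0.191, adjusted p = 0.00663). Mcm3, of the replicative helicase, was at 19.4 to 33.9 CPM and at 13.9 to 18.2 CPM (log2 fold change -0.69), and Rrm1 and Mcm4 differed by -0.42 and -0.44. Secretory pathway genes had 3 of 25 lower by small amounts (12%, against 5.98% of all genes). Canx, a chaperone of glycoproteins in the endoplasmic reticulum, was at 736, 680, 660 and 731 CPM and at 544, 541, 535, 571 and 538 CPM (log2 fold change -0.36, SE 0.102, adjusted p = 0.0199). Without 7D tendon 5 alone, none of Mcm3, Mcm4, Rrm1 and Canx was called (adjusted p = 0.114, 0.316, 0.215 and 0.0635), and without tendons 4 and 5 Ccne1 alone kept its call in the proliferation list while Canx and Mcam lost theirs. None of the 22 glycolysis genes and none of the 26 respiratory chain genes was called, although 23 of the latter had a positive slope on the muscle share. Myofibroblast and mural genes had 1 higher and 1 lower of 15 (6.67% each, against 7.09% and 5.98% of all genes). These were the muscle intermediate filament Des (3.32) and the vessel protein Mcam (-1.1, adjusted p = 0.086 without 7D tendon 5). Acta2, the actin of myofibroblasts, was at 59.3 to 90.1 CPM and at 38.6 to 89.2 CPM without passing the test. The 5 erythroid genes were not called, and Hbb, a globin with near copies, ranged from 1730 to 10900 CPM over the 9 tendons.

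The same interval was tested at the other doses with separate tendons. At 0 mg/kg 362 genes were higher at 21D (2.88%) and 310 lower (2.47%), and at 6 mg/kg 1072 were higher (8.54%) and 571 lower (4.55%). Genes higher at 2 mg/kg and at 0 mg/kg numbered 168, which is 18.9% of the first list and 46.4% of the second, and 145 were lower at both (19.3% and 46.8%). With 6 mg/kg the shared genes were 528 higher (59.3% and 49.3%) and 250 lower (33.3% and 43.8%). These overlaps of higher genes include muscle RNA. Outside the muscle lists and the genes of positive slope on the muscle share, 521 genes were higher. Of these, 176 were shared with the 6 mg/kg comparison and 84 with the vehicle comparison. A fold change above 0 was found for 473 and 416 of the 521. Tppp3, Mmp16, Nov and Sfrp2 were called in the same direction at all 3 doses. Their log2 fold changes with vehicle were 1.4, 1.68, 1.28 and -1.83. With 6 mg/kg they were 1.8, 2.25, 1.86 and -1.99. Among the higher genes of the fibril collagen, basement membrane and matricellular lists, Kera was also called with vehicle (1.63). Loxl2, Col24a1 and Thbs4 had 0.62, 0.76 and 0.75 there without passing. Thbs1, Col5a3, Col6a1, Col5a2 and Nid1 had -0.06, -0.28, -0.15, -0.05 and -0.03 and did not pass. The difference in time effect from vehicle passed for none of these list genes (smallest adjusted p = 0.129 by edgeR, for Thbs1).

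**Figure D5:**
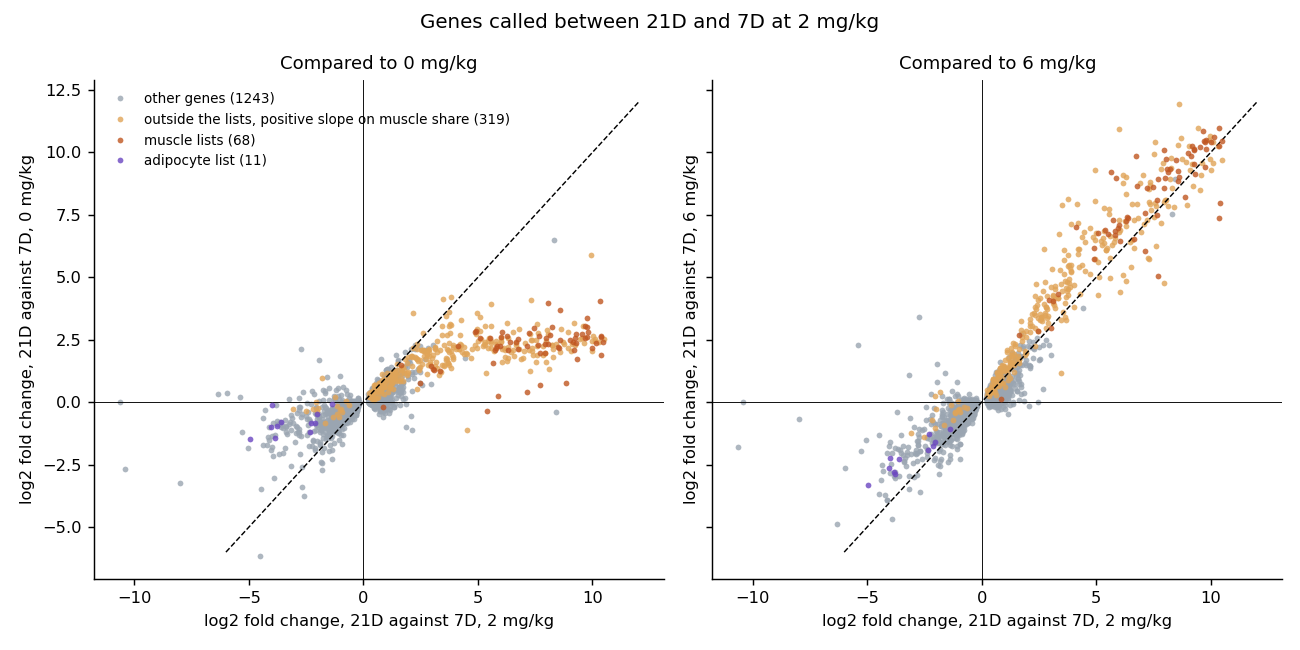
Log2 fold change of 21D against 7D at 2 mg/kg (x axis) against the same at 0 mg/kg (left) and at 6 mg/kg (right) for the 1641 genes called at 2 mg/kg, 1 point per gene, with a dashed line of equal values; the muscle, muscle-following and adipocyte genes are coloured and their numbers given. At 0 mg/kg the muscle lists lie below the dashed line, and Wif1, at -1.01 and 1.04, is called in opposite directions.

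The difference in time effect between 2 and 0 mg/kg passed the test in 28 genes (0.223%), 23 with a higher and 5 with a lower signed log2 fold change at 2 mg/kg. Of the 28, 17 were in the muscle lists and 2 more followed the muscle share, and the 7D 0 mg/kg tendons held more muscle RNA than the 7D 2 mg/kg tendons. Acta1, for example, was at 188 to 2060 CPM in the 7D 0 mg/kg tendons, against 1.6 to 5.73 CPM at 2 mg/kg, and its time effect differed by 7.71 (SE 1.45, adjusted p = 0.0269). The other 9 genes were Wif1, Krt79, Igfn1, Fmo2, Ankrd13b, Fam171a2, Dpep1, Agt and Zfp57. Wif1 was at 5.23, 9.61, 5.13 and 12.3 CPM in the 7D and at 4.18, 4.11, 2.99, 3.86 and 4.95 CPM in the 21D 2 mg/kg tendons, while at 0 mg/kg it was at 2.04 to 3.67 CPM at 7D and 3.68 to 7.44 CPM at 21D, a difference of -2.04 (SE 0.375, adjusted p = 0.0269). Fmo2, a flavin monooxygenase, was at 6.4 to 16.0 and 1.34 to 3.13 CPM at 2 mg/kg and at 1.33 to 4.21 and 1.26 to 5.70 CPM at 0 mg/kg, a difference of -2.68. Agt and Dpep1, among the largest decreases above, differed by -3.72 and -2.83, and Zfp57, a zinc finger protein of imprinted genes, by 2.87. The count of 28 was 0 without 7D tendons 4 and 5, without 7D tendon 4 alone and without 7D tendon 5 alone, and leaving out any 1 tendon of the 4 groups gave 0 to 73 genes.

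Between 2 and 6 mg/kg no gene differed in its time effect (0%) by edgeR, where the smallest adjusted p was 0.72, 866 genes had an unadjusted p under 0.05, and DESeq2 called 0 genes. The 5 genes of smallest p in that test included Fmo2 (-2.56) and Cck, a peptide hormone at 0.642 to 3.53 CPM in the 7D and 0.12 to 0.477 CPM in the 21D 2 mg/kg tendons (-4.25).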

How the data were processed

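Gene expression was measured by RNA sequencing of whole tendon RNA in 30 rat plantaris tendons. The authors deposited raw counts per gene for each tendon, made from reads trimmed with fastp and aligned with STAR to rn6 with the Ensembl annotation. The depositors' own table of comparisons (log2 fold changes, p-values, false discovery rates and gene lengths) was used only for gene names, identifiers and chromosomes. Every count column matched a labelled tendon, with 0 left over. The authors removed tendons of low read quality, which were not analysed here, and 1 gene of those the naming rule chose is not reported here.

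Counts were analysed with edgeR 4.0.16 in R 4.3.3 (limma 3.58.1). Genes were kept where any group averaged 3 CPM or more (12558 of 13124), library sizes were scaled by TMM, and a quasi-likelihood model with 1 mean per group was fitted to all 30 tendons. Every adjusted p in the text is Benjamini-Hochberg adjusted over all genes tested, and calls used 0.05 with no fold threshold. Differences in time effect were interaction contrasts of the same fit, and slopes added the log2 muscle or adipocyte share of counts beside the group means. CPM per tendon are unlogged, and fold changes of genes with 0 or few counts depend on the small default prior count of edgeR's fit. A bound against a floor of 3 counts per library, or a ratio of summed counts with an exact 95% interval, is therefore given for them. These bounds and intervals cover counting error only, since PCR reads carried no molecular identifiers. Each tendon came from its own rat, so p-values measure the spread between rats. No 2 tendons held duplicate libraries (the smallest chi-square per gene between tendons of a group was 44.5, over genes with at least 10 counts). The muscle share was compared by an exact permutation test (scipy 1.17.1). The fit was tested on simulated counts with known changes before use.

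Genes named in the text are those with the 10 largest increases and decreases outside muscle among called genes whose groups did not overlap and that reached a mean of 10 CPM, the 6 muscle genes of highest level, called genes of muscle development, up to 5 called genes of each list (or 2 by level where none was called), the 5 genes of smallest p in each interaction, and 16 genes the study was about. Other muscle genes, the members of the hair and pigment lists and the promoters shown were chosen after values were seen. All members and lists were chosen with earlier results of these data known. Alternatives were RLE factors, total counts only, no filter, a filter at 10 CPM, DESeq2 1.42.0, only the groups compared, a replicate block, a 1.5-fold threshold, muscle genes left out before scaling, the muscle share as a covariate, and each tendon left out in turn. The adipocyte covariate, its slope and the fit without 7D tendons 4 and 5 were added after seeing the data.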

Additional observations from a re-analysis of the deposited data

Results flagged for a closer look

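In groups of 4 or 5 tendons, a tendon set far from the others of its group was looked for among the named genes by the ratio of its gap to the group's range, a rule that chance meets in about 1 in 20 groups. It was met in 13 of the 270 groups of tendons looked at, or about as often as chance gives. Among matrix genes, Eln was at 356 CPM in 21D tendon 5 (179 to 191 in the others) and Ltbp4 at 475 CPM in 21D tendon 3 (574 to 595). Among immune and signal genes, Cd68 was at 61.8 CPM in 7D tendon 5 (221 to 259) and Igf1 at 166 CPM in 7D tendon 3 (205 to 207). The prostanoid enzymes Ptges at 13.1 CPM in 21D tendon 2 (19.2 to 20.4), Ptgs1 at 66.6 CPM in 21D tendon 3 (29.9 to 33.6) and Ptgs2 at 15.8 CPM in 7D tendon 3 (8.65 to 9.17) each had such a tendon. So did Ccne1 at 4.42 CPM in 7D tendon 4 (5.83 to 5.85), Rrm1 at 61.9 CPM in 21D tendon 3 (56.2 to 57.0), Canx at 571 CPM in 21D tendon 4 (535 to 544) and Atp5f1b, of the mitochondrial ATP synthase, at 747 CPM in 21D tendon 3 (962 to 1010). In 21D tendon 5, Hbb was at 6850 CPM (1730 to 2420), and LOC259244 was at 3.16 CPM in 21D tendon 2 (0.941 to 1.22).

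The time effect differed between 2 and 0 mg/kg in 28 genes. Among the named genes the difference of log2 fold changes (2 minus 0 mg/kg) was 7.71 for Acta1, 7.77 for Myh4, 6.55 for Mylpf, 7.12 for Myl1, 8.06 for Ckm, 7.82 for Trdn and 8.83 for Igfn1. It was -3.72 for Agt, -2.83 for Dpep1, -2.04 for Wif1, -2.68 for Fmo2 and 2.87 for Zfp57. The part of the muscle RNA of the 7D 0 mg/kg tendons in these differences was not tested.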

How the results depend on the processing

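The counts of higher and lower genes kept within 1.5 times their values under RLE factors, scaling by total counts, both other filters, DESeq2, the fit of the groups compared, the replicate block, the muscle covariate and scaling without muscle genes. With at least 1.5-fold required, 496 genes were lower in all and 496 outside the muscle lists. With the adipocyte share as a covariate 48 were higher and 24 lower (20 and 24 outside the muscle lists), and without 7D tendons 4 and 5, 267 and 194 (215 and 194 outside). Leaving out 1 tendon gave 538 to 783 higher and 415 to 762 lower genes (473 to 717 and 415 to 762 outside), with 538 and 415 without 7D tendon 5 and 492 lower without 21D tendon 1. The adipocyte slope was positive in 0 genes when only the 21D tendons were used. The cause of these changes was not tested.

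The 28 genes whose time effect differed between 2 and 0 mg/kg became 226 by DESeq2, 17 in the fit of only the 4 groups, 2 with the replicate block, 0 with muscle genes left out before scaling, 1051 with the muscle covariate, 0 with the adipocyte covariate and 0 without 7D tendons 4 and 5. Leaving out 1 tendon gave 0 to 73, with 73 without 7D 0 mg/kg tendon 1, 49 without 21D 0 mg/kg tendon 2, 18, 8 and 1 without 21D tendon 3, 7D tendon 2 and 7D tendon 3 of 2 mg/kg, and 0 without 7D tendons 2 or 4 or 21D tendon 4 of 0 mg/kg, or 7D tendons 4 or 5 or 21D tendons 1 or 5 of 2 mg/kg. Against 6 mg/kg the count of 0 became 2 with the muscle covariate, and stayed at 0 when any 1 tendon was left out.

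Of the 110 named genes called, 2 lost the call with RLE factors, 7 with total counts only, 0 with DESeq2, 14 in the fit of only the groups compared, 19 with the replicate block, 61 without 7D tendons 4 and 5, 59 with the muscle covariate, 98 with the adipocyte covariate and 50 in at least 1 fit without 1 tendon, where none turned its direction. The muscle covariate is built from the muscle genes themselves. It turned the log2 fold change of Tnnt3 to -1.90, Mef2c to -1.62, Myf6 to -0.20, Myl4 to -0.26, Cdh15 to -2.42, Des to -1.02, Mcm3 to 0.09, Aldoa to -1.45 and Atp5f1b to -1.09. It also ended the calls of Col13a1 (log2 fold change 2.09), Nov (1.24), Loxl2 (1.87), Inhbb (-1.19), Ccl7 (-1.22) and Hpgd (-1.09). The adipocyte covariate ended these at 1.61, 1.02, 1.01, -1.5, -2.04 and -2.22, and those of Hmcn1 (1.25), Tppp3 (1.0) and Mmp16 (1.25), so that some folds stayed about as large. The adipocyte covariate turned Fabp4 to 0.52. The muscle share differed by 6.82 to 7.16 without 1 tendon and by 7.41 over the contractile list alone.

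The replicate block gave 844 higher and 680 lower genes. The labels do not say that a replicate number joins a 7D and a 21D rat, and tendons of the same number correlated at 0.182, -0.131, -0.112 and 0.0536 in their deviations from the group means, so the numbers were not read as pairs. With 4 and 5 tendons and totals from 14958208 counts, the median standard error was 0.173 on the log2 scale (0.273 and 0.254 with the covariates). Changes well above 1 standard error could be missed. Col5a2, for example, only just passed at a log2 fold change of 0.82 (SE 0.273, adjusted p = 0.0466 by edgeR).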

Other observations

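Of a list of pigment cell genes chosen after the values were seen, 3 were tested and 2 were higher at 21D. Mlana, a melanosome protein of melanocytes, was at 2.02, 2.75, 1.47 and 1.28 CPM in 7D tendons 2 to 5 and at 9.76, 8.44, 7.35, 10.2 and 10.3 CPM in 21D tendons 1 to 5, with no overlap (log2 fold change 2.27, adjusted p = 0.000538 by edgeR). Gpr143, a receptor of pigment granules, was at 1.33, 0.812, 0.0546 and 0.0642 CPM and at 2.55, 4.85, 1.25, 7.77 and 2.61 CPM (log2 fold change 2.66, adjusted p = 0.0397). When 7D tendon 3, 4 or 5 was left out, 1 of the 3 genes was called in place of 2. Pmel, of the melanosome fibrils, differed by 0.40 and was not called. The 6 listed genes summed to 3.02 to 6.5 CPM at 7D and to 11.9 to 20 CPM at 21D. At 0 mg/kg the sums were 4.91 to 5.37 CPM at 7D and 10.1 to 17.6 CPM at 21D, at 6 mg/kg 4.22 to 5.83 and 8.23 to 23.3 CPM, and in uninjured tendons 1.32 to 2.12 CPM.

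Skin and hair keratins appeared in single tendons. In 7D tendon 3, Krt5, Krt14 and Krt17 of the epidermis and the hair follicle were at 65.3, 47.6 and 58.0 CPM and the hair protein Tchh at 42.4 CPM, and in 21D tendon 1 the 3 keratins were at 11.4, 11.3 and 17.4 CPM. The 13 genes of the list summed to 3.18 to 91.4 CPM in uninjured tendons and to 5.07 to 57.5 CPM in the 21D 6 mg/kg tendons.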
